A study of Homo sapiens with 18 samples.

Results

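MUC1 and 7 genes that accompany it on the cell surface or glycosylate it were followed through 18 RNA-seq libraries of triple-negative breast cancer (TNBC) cells. The 8 genes are the mucins MUC1, MUC16 and MUC20, the lectin LGALS3, and the O-glycan genes C1GALT1, C1GALT1C1, ST3GAL1 and GCNT1. They were chosen by name, with earlier results of these data known. All 8 are listed in each of the 3 expression tables, which hold 25673 genes (PBRM1 experiment), 25540 genes (IRF1 experiment) and 25557 genes (MUC1 experiment). The study asked what silencing MUC1, the PBAF chromatin remodeling subunit PBRM1 or the interferon-response factor IRF1 does to gene expression in TNBC cells. BT-549 cells carried a stable control shRNA or a stable shRNA against PBRM1 (shPBRM1), and in a separate experiment a stable control shRNA or shIRF1. MDA-MB-436 cells carried tet-MUC1shRNA, a hairpin against MUC1 switched on by doxycycline (DOX), and received 0.1% DMSO as vehicle or 500 ng/ml DOX. Each of the 6 groups had 3 libraries, and all lines carried puromycin resistance.

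No DOX-treated MDA-MB-436 group without the MUC1 hairpin was analysed here, so DOX itself and MUC1 silencing cannot be told apart. The labels do not say how long DOX was given or whether a line is 1 clone, and each comparison is 1 hairpin construct in 1 cell line. The libraries came from triplicate cultures, so p-values measure the spread between cultures of one line. In both BT-549 experiments the fitted p-values rest on the spread typical of genes at the same expression level, not on each gene's own spread.

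Mucins are large glycoproteins whose extracellular part carries dense O-linked sugar chains. MUC1 is a transmembrane mucin that is cleaved into an N-terminal, heavily glycosylated subunit and a C-terminal subunit (MUC1-C) that spans the membrane and is known as an oncogenic signaling protein in breast cancer. O-glycosylation starts when a GALNT enzyme adds N-acetylgalactosamine to serine or threonine. C1GALT1 then adds galactose to make core 1 and needs its chaperone C1GALT1C1 (COSMC) to fold, after which ST3GAL1 caps core 1 with sialic acid or GCNT1 branches it into core 2. LGALS3 encodes galectin-3, a lectin that binds galactose-containing glycans, MUC1 among them. In breast cancer the O-glycans of MUC1 are commonly shortened and sialylated.

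MUC1 lies on chromosome 1 at 155185824 to 155192916 on the minus strand (GRCh38, GENCODE 29). GENCODE lists 29 MUC1 transcripts of 177 to 4170 bases, and 1 of them, the longest, holds at least 2 exact copies of the tandem repeat that carries the O-glycans. The repeat unit is shown because it is the stretch that the glycosylation genes of this list act on. In that transcript 36 consecutive units of 60 bases take up 51.8% of the length, within the coding sequence and between exon 2 and exon 6, at 155188971 to 155192060. In the most frequent unit, read 5′ to 3′ from the GENCODE transcript and found in 16 exact copies, capitals mark the 26 bases that are the same in all 36 units.
MUC1 repeat unit: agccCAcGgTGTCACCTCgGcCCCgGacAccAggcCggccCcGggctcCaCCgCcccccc
Since TPM divides reads by transcript length and most MUC1 transcripts lack the repeat, the MUC1 level depends on which transcripts the authors' program assigned the reads to.

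Promoters are shown for MUC1, LGALS3 and C1GALT1, which with ST3GAL1 were the listed genes that were lower in BT-549 cells after silencing of PBRM1 or IRF1. Each is the 250 bases before the RefSeq start site (GRCh38.p14), 5′ to 3′ on the gene's strand: chr1:155192916-155193165 on the minus strand for MUC1, chr14:55129002-55129251 on the plus strand for LGALS3 and chr7:7182294-7182543 on the plus strand for C1GALT1. Capitals mark matches on either strand to one of 3 motifs. The GC box was searched as GGGCGG. The E-box was searched as CACCTG. The TATA box was searched as TATAAA.
MUC1: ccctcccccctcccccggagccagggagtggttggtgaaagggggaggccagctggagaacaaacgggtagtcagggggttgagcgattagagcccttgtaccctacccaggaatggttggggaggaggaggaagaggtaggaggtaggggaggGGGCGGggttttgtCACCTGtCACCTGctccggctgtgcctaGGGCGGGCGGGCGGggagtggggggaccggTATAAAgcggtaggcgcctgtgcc
LGALS3: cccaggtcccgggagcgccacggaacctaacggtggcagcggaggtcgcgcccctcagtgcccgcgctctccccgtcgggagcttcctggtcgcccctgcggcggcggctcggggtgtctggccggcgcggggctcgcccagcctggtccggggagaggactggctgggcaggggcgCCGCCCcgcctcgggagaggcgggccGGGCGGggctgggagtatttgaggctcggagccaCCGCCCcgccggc
C1GALT1: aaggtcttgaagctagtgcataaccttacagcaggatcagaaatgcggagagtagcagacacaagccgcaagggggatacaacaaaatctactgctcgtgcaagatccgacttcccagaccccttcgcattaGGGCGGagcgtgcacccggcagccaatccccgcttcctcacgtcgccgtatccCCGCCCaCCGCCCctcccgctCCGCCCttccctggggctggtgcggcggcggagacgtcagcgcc
The MUC1 window held 4 GC boxes, 3 of them overlapping, 2 E-boxes and 1 TATA box 24 bases before the start site. The LGALS3 window held 3 GC boxes and the C1GALT1 window 4, with neither of the other motifs. Of 35116 RefSeq promoter windows of this length, 42.6% held a GC box, 17.5% the E-box and 10.7% the TATA box. The interferon-stimulated response element, searched as 2 GAAA boxes with 2 bases of any kind between them, was found in 3.02% of the windows. The GAS element, searched as TTCNNNGAA, was found in 6.57%. Neither was matched in these 3 windows, on either strand, which says only that these letters are not there. RefSeq entries matched 6 of the 8 genes.

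Levels are given as TPM, a length-corrected abundance that sums to 1000000 in each library. Per library, 75.7% to 79.2% (PBRM1 experiment), 84.8% to 88.5% (IRF1 experiment) and 12.0% to 15.1% (MUC1 experiment) of this sum fell on short noncoding RNAs, so levels were compared within a table only. Folds are differences of mean log2(TPM + 1), silenced minus control, a scale on which low genes appear to change less than they do. They were tested with limma across all genes that reached 1 TPM in at least 3 of 6 libraries. Higher and lower refer to a Benjamini-Hochberg adjusted p under 0.05, and a gene is called when its absolute log2 fold also exceeds 1. The silenced genes followed their labels. PBRM1 averaged 11.9 ± 1.02 TPM in control and 2.96 ± 0.266 TPM in shPBRM1 libraries (SD, n = 3). IRF1 averaged 4.75 ± 0.410 TPM in control and 1.17 ± 0.137 TPM in shIRF1 libraries (SD, n = 3).

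With PBRM1 silencing, 3 of the 5 tested members were lower (LGALS3, MUC1 and ST3GAL1) and 0 higher, against backgrounds of 34.8% lower and 24.6% higher among 10639 genes tested. With IRF1 silencing, 2 of 5 were lower (C1GALT1 and LGALS3) and 0 higher, against 18.5% lower and 5.76% higher among 9135 genes. With DOX in MDA-MB-436 cells, 4 of 7 were higher (LGALS3, ST3GAL1, C1GALT1 and GCNT1) and 2 lower (MUC1, the hairpin's target, and C1GALT1C1), against 27.0% higher and 23.4% lower among 13229 genes. No member was called in any experiment (0 in each), where the background was 3.86% lower and 1.02% higher, 1.78% and 0.0547%, and 1.35% and 1.34% in the same order. Of the genes that passed the test, 41.4% were higher in the PBRM1 and 23.7% in the IRF1 experiment. These shares were 30.7% and 54.6% with short noncoding RNAs removed, and 56.7% and 47.8% with median-of-ratios scaling, so directions in BT-549 were read beside those scalings. Libraries of the 2 groups did not overlap for 3 of the 5 tested members in the PBRM1 experiment, all lower (35.4% of all genes tested were lower and 26.5% higher without overlap). This held for 2 of 5 in the IRF1 experiment, both lower (25.0% lower and 8.90% higher), and for 5 of 7 in MDA-MB-436, 4 higher and 1 lower (31.5% higher and 27.7% lower).

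**Figure D1:**
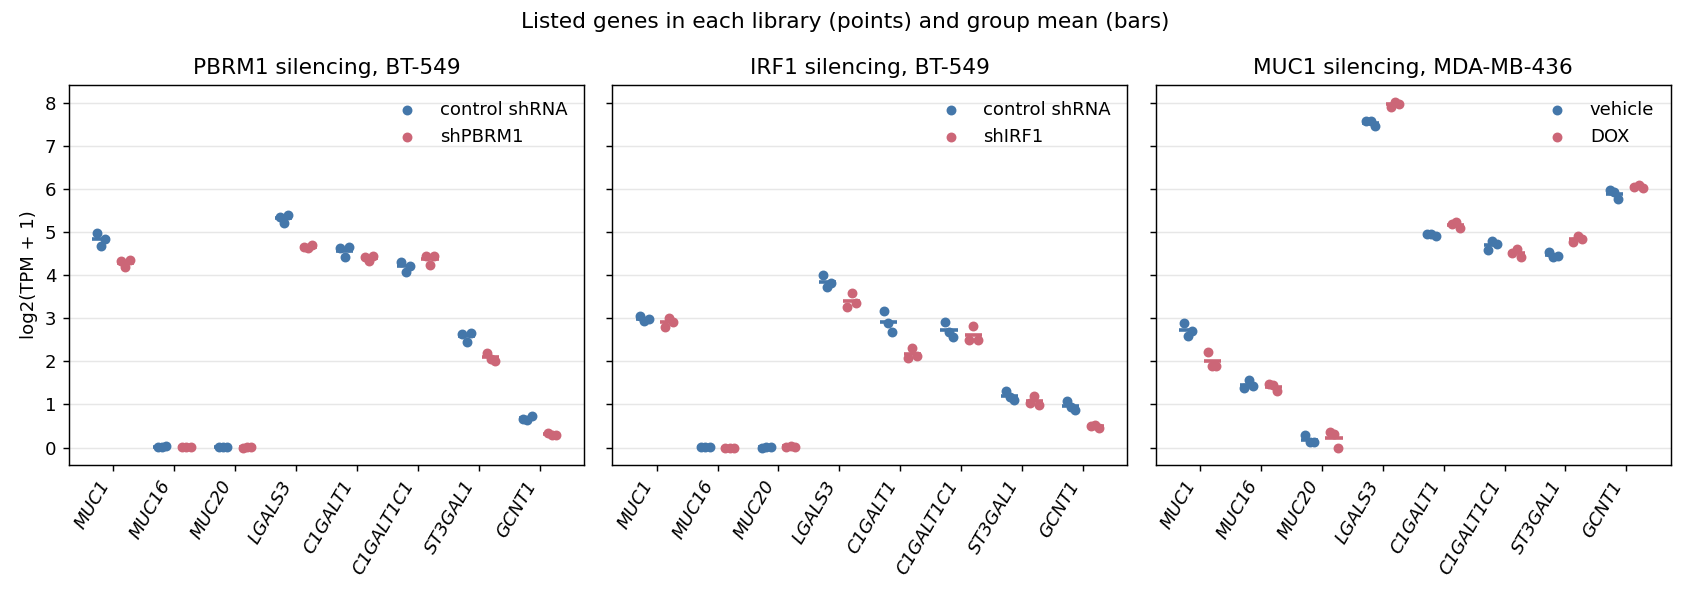
Level of the 8 listed genes as log2(TPM + 1) (y axis) in each library (points) with the group mean (horizontal bars), control in blue and silenced in red, 1 panel per experiment. LGALS3 is the highest of the 8 in every group, and GCNT1 is second in both MDA-MB-436 groups but sixth in every BT-549 group.

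MUC1, the transmembrane mucin, was lower after PBRM1 silencing. It stood at 30.3, 24.6 and 27.6 TPM in the 3 control libraries of the PBRM1 experiment and at 19.2, 17.2 and 19.3 TPM in the shPBRM1 libraries. Every shPBRM1 library was below every control library. The mean went from 27.5 ± 2.85 to 18.5 ± 1.20 TPM (SD, n = 3), 67.5% of control. The log2 fold was -0.54 with an SE of 0.09 (limma adjusted p = 3.7e-09).

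After IRF1 silencing MUC1 did not pass the test. Control libraries held 7.25, 6.63 and 6.91 TPM and shIRF1 libraries 5.92, 7.05 and 6.49 TPM, and the groups overlapped. The log2 fold was -0.08 with a 95% interval of -0.37 to 0.20 (limma adjusted p = 0.74), whereas TPM rescaled without short noncoding RNAs gave 0.02 (adjusted p = 0.79), so the sign depends on the scaling.

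In MDA-MB-436 cells MUC1 was the hairpin's target and its level checks the label. Vehicle libraries held 6.37, 4.97 and 5.55 TPM and DOX libraries 3.65, 2.71 and 2.73 TPM, with no overlap. The mean was 53.9% of vehicle (log2 fold -0.72, SE 0.13, limma adjusted p = 1.5e-03). In the authors' deposited tables MUC1 had a mean normalized count of 36.5 there, against 1596 in the PBRM1 and 2451 in the IRF1 experiment.

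MUC16 (CA125), the largest transmembrane mucin, reached the test in MDA-MB-436 cells only. It stood at 1.62, 1.95 and 1.68 TPM with vehicle and at 1.77, 1.74 and 1.50 TPM with DOX. The groups overlapped and the log2 fold was -0.04 (95% interval -0.33 to 0.25, limma adjusted p = 0.80). In BT-549 cells MUC16 was near 0: 0.0122 to 0.0202 TPM in control and 0.00430 to 0.00709 TPM in shPBRM1 libraries, and 0.00157 to 0.00275 TPM in control and 0.000163 to 0.00112 TPM in shIRF1 libraries. Neither pair of groups overlapped. It was under the filter of 1 TPM, and in a fit without the filter it did not pass (limma adjusted p = 0.19 after PBRM1 and 0.53 after IRF1 silencing). Its mean normalized count in the authors' tables was 19.4 and 13.2 in the same order.

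MUC20, a small transmembrane mucin, was below 0.3 TPM in all 18 libraries and thus under the filter. In the PBRM1 experiment control libraries held 0.00655, 0.00220 and 0.00243 TPM, and 1 of the shPBRM1 libraries was listed at 0 with the others at 0.00267 and 0.00351 TPM. In the IRF1 experiment control libraries held 0.000489, 0.00159 and 0.00511 TPM and shIRF1 libraries 0.0172, 0.0205 and 0.0163 TPM. The shIRF1 libraries were all above the control libraries, on a mean normalized count of 24.6. Without the filter MUC20 passed as higher in the IRF1 experiment, where its log2 fold was 0.022 with an SE of 0.0030 (limma adjusted p = 8.3e-03), and 0.17 when short noncoding RNAs were removed as well (adjusted p = 7.6e-04). In MDA-MB-436 cells MUC20 held 0.224, 0.0928 and 0.100 TPM with vehicle and 0.287, 0.238 and 0 TPM with DOX, and the groups overlapped. It did not pass without the filter there or in the PBRM1 experiment (limma adjusted p = 0.82 and 0.84). Copies of MUC20 exist on the same chromosome (MUC20P1), so reads could be divided between them.

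LGALS3, galectin-3, was the highest of the 8 genes in every group and moved in opposite directions in the 2 cell lines. The PBRM1 control libraries held 39.5, 36.1 and 41.0 TPM and the shPBRM1 libraries 24.0, 23.8 and 24.9 TPM. Every shPBRM1 library was lower, and the mean was 62.4% of control (log2 fold -0.66, SE 0.09, limma adjusted p = 3.8e-13). It was the member with the largest tested fold of the PBRM1 experiment.

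LGALS3 was lower after IRF1 silencing too. It held 15.0, 12.1 and 13.1 TPM in control and 8.54, 11.1 and 9.24 TPM in shIRF1 libraries. The groups did not overlap and the mean was 71.7% of control (log2 fold -0.44, SE 0.15, limma adjusted p = 0.016). Without control 2 the adjusted p was 0.063, without shIRF1 1 it was 0.20 and without shIRF1 3 it was 0.15. With short noncoding RNAs removed from the TPM, the log2 fold was -0.36 and the adjusted p 1.0e-04.

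In MDA-MB-436 cells LGALS3 held 188, 189 and 175 TPM with vehicle and 238, 256 and 248 TPM with DOX. All DOX libraries were higher, by 34.5% in the mean (log2 fold 0.43, SE 0.04, limma adjusted p = 5.7e-05). The difference between the cell lines was not tested, since the tables were normalized separately and the hairpins have different targets.

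C1GALT1, the enzyme that makes core 1, was lower after IRF1 silencing. Control libraries held 8.01, 6.40 and 5.42 TPM and shIRF1 libraries 3.19, 3.98 and 3.36 TPM. No shIRF1 library reached the lowest control library, and the mean was 53.1% of control (log2 fold -0.74, SE 0.14, limma adjusted p = 2.8e-06). It had the largest tested fold of the list in that experiment.

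In the PBRM1 experiment C1GALT1 held 23.6, 20.5 and 24.2 TPM in control and 20.5, 19.0 and 20.9 TPM in shPBRM1 libraries, and the groups overlapped. The log2 fold was -0.17 (SE 0.09, limma adjusted p = 0.090). It passed with the replicate block taken from the column names, a fit chosen after seeing the data (limma adjusted p = 7.9e-04). It also passed in TPM rescaled without short noncoding RNAs (log2 fold -0.25, adjusted p = 4.9e-05). A further pass came without control b (adjusted p = 2.4e-03). C1GALT1 did not pass with median-of-ratios scaling (log2 fold -0.06, limma adjusted p = 0.14) or without any other single library (adjusted p 0.15 to 0.32). In MDA-MB-436 cells it held 29.8, 30.2 and 29.0 TPM with vehicle and 35.2, 36.4 and 33.0 TPM with DOX, higher in every DOX library (log2 fold 0.22, SE 0.05, limma adjusted p = 5.8e-03).

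C1GALT1C1, the chaperone of C1GALT1, passed the test in MDA-MB-436 cells alone, where it was lower. The PBRM1 experiment gave 18.8, 15.8 and 17.6 TPM in control and 20.7, 17.9 and 20.9 TPM in shPBRM1 libraries, which overlapped (log2 fold 0.18, SE 0.09, limma adjusted p = 0.068). With the replicate block from the column names, chosen after seeing the data, it was higher (adjusted p = 3.7e-04). It was also higher with median-of-ratios scaling (log2 fold 0.29, adjusted p = 6.9e-05) and without shPBRM1 2 (adjusted p = 0.023). It did not pass with short noncoding RNAs removed (log2 fold 0.10, limma adjusted p = 0.064) or without any other single library (adjusted p 0.060 to 0.31).

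With IRF1 silencing C1GALT1C1 held 6.58, 5.36 and 4.88 TPM in control and 4.64, 6.01 and 4.68 TPM in shIRF1 libraries, with overlapping groups (log2 fold -0.11, 95% interval -0.39 to 0.17, limma adjusted p = 0.64). In MDA-MB-436 cells it held 22.9, 26.5 and 25.5 TPM with vehicle and 21.6, 23.2 and 20.3 TPM with DOX. The groups overlapped, and the fold of -0.19 (SE 0.07) was just past the threshold (limma adjusted p = 0.046). It did not pass without vehicle 2 (adjusted p = 0.14), vehicle 3 (0.11), DOX 1 (0.099) or DOX 3 (0.15), nor without the mean-variance trend (0.074). C1GALT1C1 has a close intronless copy, C1GALT1C1L, in the tables, so reads could be divided between them.

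ST3GAL1, the sialyltransferase that caps core 1 (chromosome 8), was lower after PBRM1 silencing and higher with DOX. It held 5.24, 4.45 and 5.31 TPM in the PBRM1 control libraries and 3.58, 3.16 and 3.05 TPM in the shPBRM1 libraries. The groups were apart and the mean was 65.2% of control (log2 fold -0.49, SE 0.09, limma adjusted p = 4.8e-08). In the IRF1 experiment control libraries held 1.48, 1.27 and 1.16 TPM and shIRF1 libraries 1.05, 1.31 and 0.975 TPM, and the groups overlapped (log2 fold -0.12, SE 0.10, limma adjusted p = 0.39). The IRF1 fold passed with median-of-ratios scaling (log2 fold -0.09, adjusted p = 0.044). In MDA-MB-436 cells ST3GAL1 held 22.2, 20.3 and 20.7 TPM with vehicle and 26.3, 29.0 and 27.6 TPM with DOX, 31.2% higher in the mean (log2 fold 0.38, SE 0.06, limma adjusted p = 7.2e-04). All DOX libraries were above all vehicle libraries.

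GCNT1, the core 2 branching enzyme, was far more abundant in MDA-MB-436 libraries than in BT-549 libraries relative to the other members. It held 61.8, 59.7 and 53.3 TPM with vehicle and 65.0, 67.2 and 63.8 TPM with DOX. The groups were apart and the log2 fold was 0.17 (SE 0.06, limma adjusted p = 0.039). It did not pass without vehicle 3 (adjusted p = 0.079), DOX 1 (0.082), DOX 2 (0.12) or DOX 3 (0.057), nor without the mean-variance trend (0.084).

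In BT-549 cells GCNT1 was under the filter on low values, and its lower level after silencing appears in the values and in the fits that included it. It held 0.591, 0.562 and 0.664 TPM in control and 0.273, 0.226 and 0.216 TPM in shPBRM1 libraries, 39.4% of control in the mean. In the IRF1 experiment it held 1.13, 0.906 and 0.826 TPM in control and 0.425, 0.447 and 0.363 TPM in shIRF1 libraries, 43.2% of control. No silenced library overlapped its control group. With short noncoding RNAs removed from the TPM, GCNT1 passed the filter and was lower in both experiments, with log2 folds of -0.89 (SE 0.10, limma adjusted p = 7.1e-06) after PBRM1 silencing and -0.90 (SE 0.07, limma adjusted p = 4.2e-07) after IRF1 silencing. TPM as deposited without the filter gave -0.37 (adjusted p = 2.9e-04) and -0.47 (adjusted p = 0.011).

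**Figure D2:**
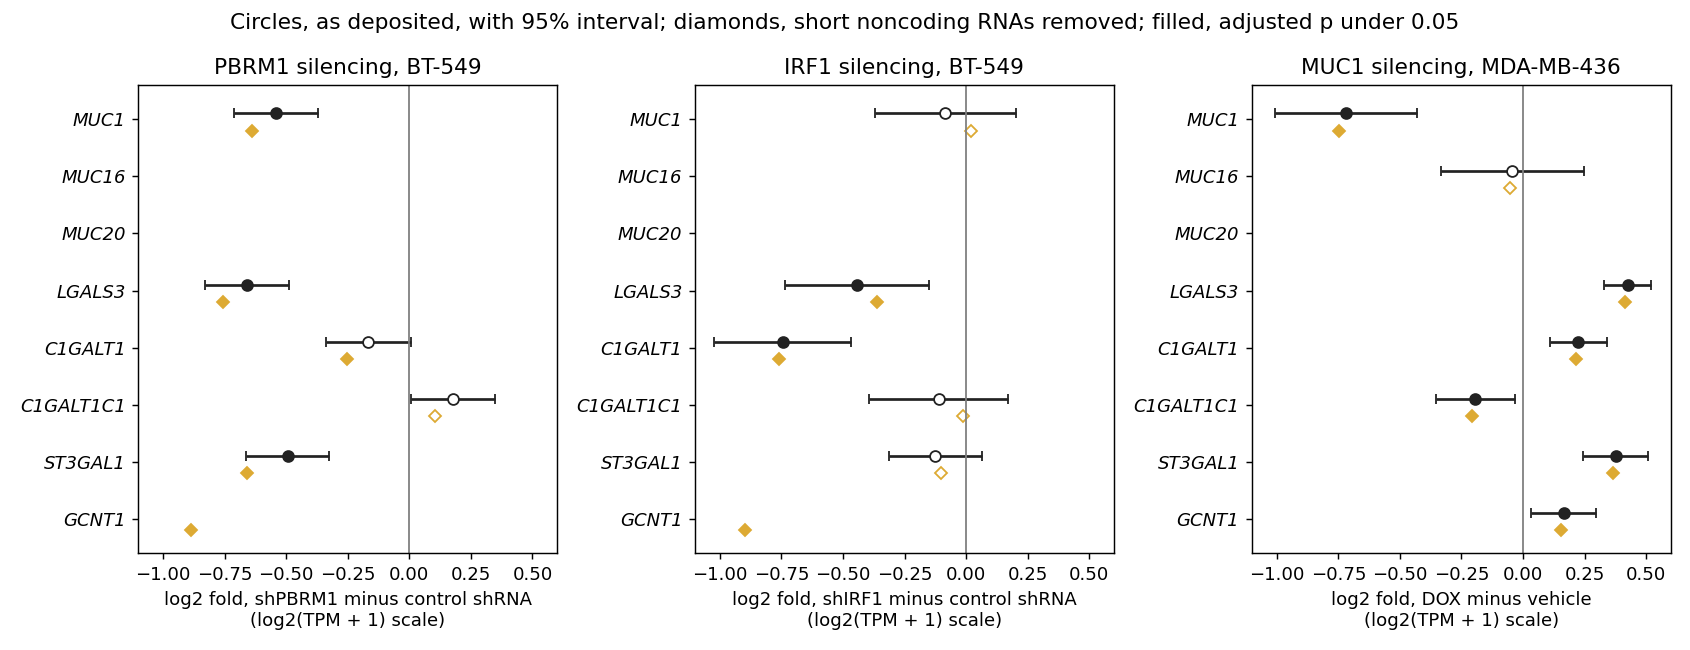
Log2 fold of silenced minus control on the log2(TPM + 1) scale (x axis) for the listed genes (y axis) in the 3 experiments. Circles with 95% intervals use TPM as deposited, diamonds use TPM with short noncoding RNAs removed, filled symbols have an adjusted p under 0.05, and a missing symbol means that the gene was under the filter. LGALS3 lies at -0.66, -0.44 and 0.43 from left to right.

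Within a library, the plain ratio of the TPM of 2 genes does not depend on the scaling of that library. The log2(TPM + 1) difference, which was the value tested, does depend on it where levels are low. C1GALT1 over its chaperone C1GALT1C1 averaged 1.31 ± 0.0609 in control and 1.02 ± 0.0399 in shPBRM1 libraries (SD of the TPM ratio, n = 3). It averaged 1.17 ± 0.0563 in control and 0.689 ± 0.0283 in shIRF1 libraries. In MDA-MB-436 cells the ratio moved the other way, from 1.19 ± 0.0912 with vehicle to 1.61 ± 0.0318 with DOX. On the log2(TPM + 1) scale the differences were -0.34, -0.63 and 0.42, and the groups did not overlap in any of the 3 experiments. With 3 libraries against 3, the exact two-sided permutation test cannot go below p = 0.10. Each of these 3 comparisons gave an exact permutation p = 0.10 (0.12 adjusted over the 6 ratio comparisons).

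The ratio of the branching enzyme GCNT1 to the capping enzyme ST3GAL1 was lower in the silenced group of every experiment on the plain TPM scale. It averaged 0.121 ± 0.00750 in control and 0.0729 ± 0.00286 in shPBRM1 libraries, and 0.730 ± 0.0273 in control and 0.373 ± 0.0307 in shIRF1 libraries. In MDA-MB-436 cells it averaged 2.77 ± 0.182 with vehicle and 2.37 ± 0.0910 with DOX, above 1 in all 6 libraries. The log2(TPM + 1) differences were -0.34 in the IRF1 and -0.21 in the MDA-MB-436 experiment (exact two-sided permutation p = 0.10 each, 0.12 adjusted). In the PBRM1 experiment that scale gave 0.12 (exact permutation p = 0.20) and a pseudocount of 0.1 gave -0.46 (exact permutation p = 0.10), so the sign depends on the pseudocount where GCNT1 is below 1 TPM.

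**Figure D3:**
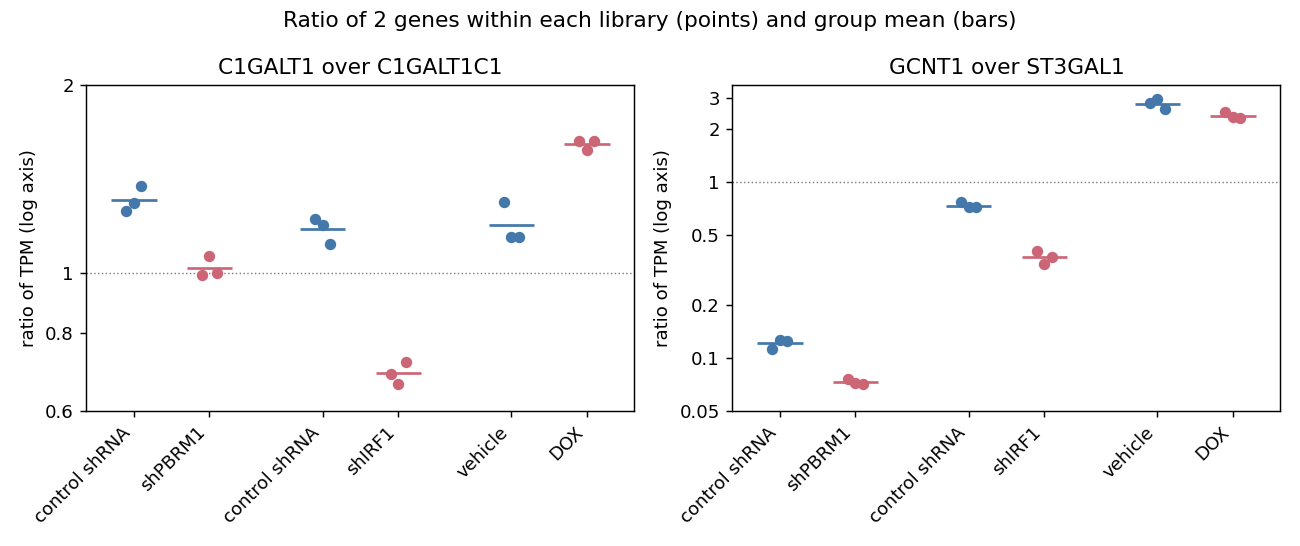
Ratio of TPM of C1GALT1 over C1GALT1C1 (left) and GCNT1 over ST3GAL1 (right) in each library (points; bars are group means; log axis), with control or vehicle in blue and silenced in red, ordered PBRM1, IRF1 and MUC1 experiment. The left ratio was lower in both silenced BT-549 groups, at 1.02 and 0.689, and higher with DOX, at 1.61.

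The order of the 8 levels was described within each group. In the PBRM1 control libraries the order was LGALS3, MUC1, C1GALT1, C1GALT1C1, ST3GAL1, GCNT1, MUC16 and MUC20, and no neighbours overlapped. In the shPBRM1 libraries MUC1 stood below C1GALT1 and C1GALT1C1, and C1GALT1, C1GALT1C1 and MUC1 overlapped with their neighbours at 20.1, 19.8 and 18.5 TPM. In the IRF1 control libraries MUC1, C1GALT1 and C1GALT1C1 overlapped at 6.93, 6.61 and 5.61 TPM. In the shIRF1 libraries C1GALT1 stood below its chaperone at 3.51 against 5.11 TPM, without overlap. In MDA-MB-436 cells MUC1 was sixth of 8 with vehicle and with DOX, above 23.6% and 14.9% of the genes tested, whereas LGALS3 stood above 93.6% and 95.4%. ST3GAL1 stood below C1GALT1C1 with vehicle (21.1 against 25.0 TPM) and above it with DOX (27.6 against 21.7 TPM).

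The wider pathway was read from 7 lists of 105 genes, and the 8 members are on none of them. With PBRM1 silencing 43 were tested, 16 were higher and 16 lower (24.6% and 34.8% of all genes tested). With IRF1 silencing 38 were tested, 4 were higher and 6 lower (5.76% and 18.5% of all). With DOX in MDA-MB-436 cells 54 were tested, 20 were higher and 11 lower (27.0% and 23.4% of all). The medians over all genes tested were -0.05, -0.06 and 0.02 in the same order. Removal of short noncoding RNAs moved the first 2 to -0.16 and 0.03.

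After PBRM1 silencing, 5 of the 7 tested GalNAc transferases that start O-glycans were higher and 2 lower (median log2 fold 0.50). GALNT2 went from 26.1 ± 2.21 to 69.5 ± 3.79 TPM (log2 fold 1.38, SE 0.09), GALNT7 from 4.53 ± 0.410 to 11.7 ± 1.06 TPM (1.20, SE 0.09) and GALNT1 from 12.6 ± 1.32 to 26.2 ± 1.03 TPM (SD, n = 3). GALNT10 and GALNT11 were higher by 0.50 and 0.35 on the log2 scale. GALNT12 and GALNT16 were lower, at -0.82 and -0.29. GALNT12 passed the filter through its control libraries alone.

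The galectin list of the PBRM1 experiment was led by LGALS3BP, a secreted glycoprotein ligand of galectin-3 that is known as an interferon-inducible gene. It went from 63.2 ± 4.72 to 3.11 ± 0.206 TPM (SD, n = 3), a log2 fold of -3.96 (SE 0.09). LGALS8, another galectin, was lower (-1.15, SE 0.07), on 1.76 TPM in control and 0.242 TPM in shPBRM1 libraries, and passed the filter through the control libraries alone. LGALS1, the most abundant galectin here, was higher, from 725 ± 22.9 to 1036 ± 39.9 TPM (0.51, SE 0.08). These are the 3 tested genes of that list (1 higher, 2 lower, median log2 fold -1.15, which is that of LGALS8).

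Among sialyltransferases of O-glycans in the PBRM1 experiment, 2 of 7 tested were higher and 3 lower (median 0.03). ST6GAL1, a sialyltransferase mainly known for acting on N-glycans, was lower (-0.98, SE 0.07) and passed the filter through its control libraries alone. ST6GALNAC5 (-0.52) and ST6GALNAC6 (-0.35) were lower, and ST3GAL2 and ST3GAL4 were higher by 0.29 and 0.21. Of 6 branching and extension enzymes, 3 were higher (B4GALT5 0.40, B4GALT4 0.28, B4GALT1 0.23) and 2 lower (CHST2 -0.55, GCNT2 -0.36), with a median of 0.13. CHST2 too passed the filter through its control libraries alone. With short noncoding RNAs removed, the medians of the sialyltransferases and of the branching enzymes were -0.26 and -0.05 against -0.16 over all genes tested.

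Of 15 genes that supply nucleotide sugars, 6 were lower and 2 higher after PBRM1 silencing (median -0.15). These counts were 10 and 2 with short noncoding RNAs removed, and 6 and 4 with median-of-ratios scaling. GFPT1, the entry enzyme of the hexosamine pathway, was lower (-0.52), like GNPNAT1 (-0.51), GNE (-0.33) and SLC35A3 (-0.33), while the transporter SLC35D1 was higher (0.55). Among mucins, the sialomucin CD164 was higher (0.39) and the sialomucin PODXL lower (-0.21), the 2 tested genes of 19. Of the 3 proteases known to shed MUC1, MMP14 (0.62) and ADAM17 (0.22) were higher and ADAM9 did not pass. With short noncoding RNAs removed 2 of these proteases were higher and 1 lower, and with median-of-ratios scaling 3 were higher and 0 lower.

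IRF1 silencing moved fewer genes of these lists on the deposited scale. B4GALT1, a galactosyltransferase that extends glycans, went from 39.9 ± 5.12 to 17.0 ± 2.17 TPM (SD, n = 3; log2 fold -1.18, SE 0.15, limma adjusted p = 3.2e-13). LGALS3BP went from 12.8 ± 1.34 to 0.888 ± 0.0527 TPM (-2.87, SE 0.14) and passed the filter through its control libraries alone, like LGALS8 (-0.53, SE 0.09). CD164 was lower (-0.92, SE 0.15), from 20.5 ± 4.40 to 10.3 ± 0.398 TPM. GALNT10 was higher, from 10.5 ± 1.24 to 23.1 ± 3.02 TPM (1.07, SE 0.15), and was the only GalNAc transferase of 6 tested to pass (median 0.13).

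In the same experiment 2 of 5 branching and extension enzymes were higher (GCNT2 0.64, B4GALT5 0.55) and 2 lower (B4GALT1 above and B3GNT2 at -0.54), with a median of -0.06. Of 15 sugar-supply genes, GFPT2 was higher (0.59) and CMAS lower (-0.49), with a median of 0.09. None of 5 sialyltransferases (median -0.02) or 3 sheddases (median -0.13) passed (0 in each direction). Of the 3 tested galectin genes, LGALS3BP and LGALS8 were lower and LGALS1 did not pass. Both lower genes had passed the filter through their control libraries alone, and the list median of -0.53 is the fold of LGALS8. With short noncoding RNAs removed the counts grew: 6 of 8 GalNAc transferases were higher and 1 lower, 8 of 15 sugar-supply genes higher and 4 lower, and 3 of 8 sialyltransferases higher and 4 lower.

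In MDA-MB-436 cells 9 of 15 sugar-supply genes were higher with DOX and 2 lower (median 0.18). SLC35A1, the CMP-sialic acid transporter, had the largest rise (0.47, SE 0.05), followed by SLC35D1 (0.35), CMAS (0.32), GNPNAT1 (0.28) and SLC35A2 (0.27). GFPT1 fell from 62.8 ± 1.70 to 35.1 ± 1.35 TPM (SD, n = 3; log2 fold -0.82, SE 0.05, limma adjusted p = 2.2e-06). The largest change of all lists was B3GNT3, which extends core 1 chains. It went from 3.62 ± 0.972 to 17.98 ± 1.51 TPM (2.06, SE 0.14, limma adjusted p = 6.6e-06).

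Of 9 branching and extension enzymes in MDA-MB-436 cells 3 were higher, B3GNT3, B4GALT4 (0.18) and B4GALT1 (0.13), and 1 lower, CHST4 (-0.73), with a median of 0.10. Of 13 GalNAc transferases, 5 were higher and 2 lower (median 0.12). GALNT3 rose from 0.253 ± 0.134 to 1.97 ± 0.361 TPM (1.24, SE 0.17) and GALNT9 from 0.273 ± 0.105 to 1.33 ± 0.242 TPM (0.87, SE 0.17), and both passed the filter through the DOX libraries alone. GALNT2 and GALNT10 were higher by 0.37 and 0.26, and GALNT14 (-0.82) and GALNT18 (-0.64) were lower. CHST4 passed the filter through the vehicle libraries alone.

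Among 8 sialyltransferases in MDA-MB-436 cells, ST6GALNAC4 (0.46) and ST3GAL3 (0.32) were higher and ST3GAL2 was lower (-0.44), with a median of 0.06. LGALS1 was lower (-0.36), LGALS8 higher (0.30) and LGALS3BP lower (-0.20, from 56.1 ± 2.54 to 48.7 ± 2.74 TPM), with a list median of -0.01 over 4 genes. PODXL was lower (-0.40) and CD164 did not pass (0.0034). The sheddases MMP14 (-0.32) and ADAM9 (-0.23) were lower (median -0.23 over 3 genes).

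**Figure D4:**
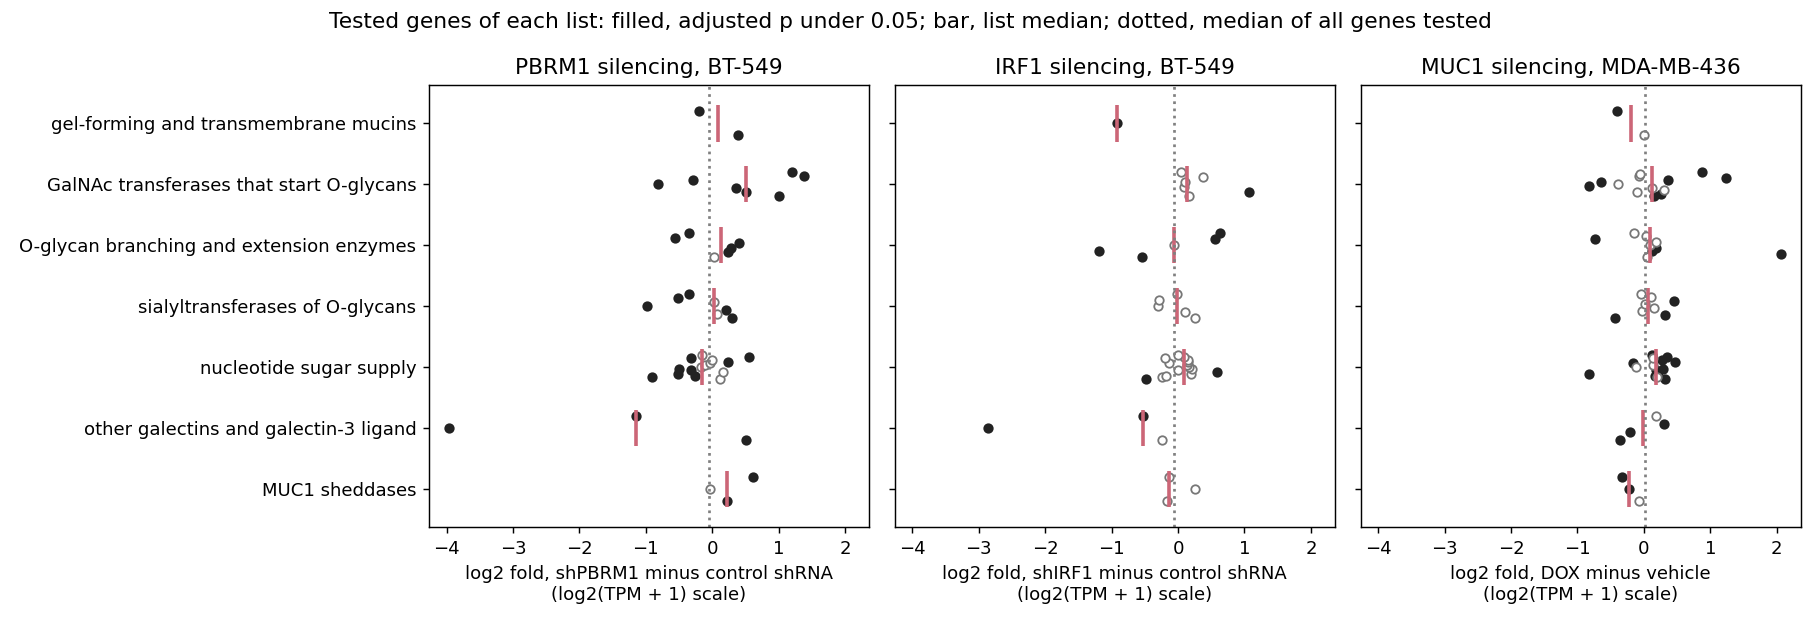
Log2 fold of silenced minus control on the log2(TPM + 1) scale (x axis) for each tested gene (points) of the 7 pathway lists (y axis) in the 3 experiments. Filled points have an adjusted p under 0.05, red bars are list medians and the dotted line is the median of all genes tested. The farthest points are LGALS3BP at -3.96 and -2.87 in BT-549 and B3GNT3 at 2.06 in MDA-MB-436.

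The genes whose pattern was most like that of MUC1 were sought by Pearson's r over the 18 libraries, after centring each table, among 8893 genes tested in all 3. The 5 highest were MRC2 (r = 0.954), KCTD11 (0.952), FBN2 (0.951), ZNF594 (0.941) and COL6A1 (0.931). Libraries of 1 group share treatment and scaling, so these values are a description. COL6A1 had log2 folds of -1.06, 0.09 and -1.07 in the PBRM1, IRF1 and MUC1 experiments, and MRC2 of -0.93, 0.01 and -1.10. Over the same libraries LGALS3 had r = 0.136 to MUC1, C1GALT1 0.057, C1GALT1C1 0.214 and ST3GAL1 0.066.

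The cell lines were checked against marker genes. Of the receptors that TNBC lacks, ESR1 and PGR stood at or near 0 in all groups (at most 0.0643 TPM in the mean). ERBB2 RNA was present, at 5.94, 2.51 and 19.0 TPM in the control groups of the PBRM1, IRF1 and MUC1 experiments. It was lower in the silenced groups of the last 2, at 1.72 and 16.3 TPM. These levels cannot be compared between tables, and with short noncoding RNAs removed the control groups stood at 26.5, 18.8 and 21.9 TPM. The 4 mesenchymal markers VIM, CDH2, FN1 and ZEB1 were tested in every experiment. Epithelial markers moved with some groups. In MDA-MB-436 cells 4 of 5 epithelial markers were higher with DOX (27.0% of all genes tested were higher). CDH1 was 1 of these and passed the filter through the DOX libraries alone (0.216 TPM with vehicle, 3.08 TPM with DOX). CLDN4 did not pass and went from 1.28 to 0.708 TPM. The 5 summed to 837 to 868 TPM with vehicle and 1649 to 1725 TPM with DOX. Most of this was KRT8 (466 to 900 TPM) and KRT18 (378 to 766 TPM). The 4 mesenchymal markers summed to 2080 to 2196 TPM with vehicle and 1385 to 1460 TPM with DOX (3 lower, 1 higher). The higher one was FN1, from 242 to 322 TPM. In the PBRM1 experiment the 2 tested epithelial markers, KRT8 and KRT18, were higher (24.6% of all genes tested were higher). KRT8 averaged 0.782 TPM in control and 6.29 TPM in shPBRM1 libraries, so it needed the latter to pass the filter. The 5 summed to 4.32 to 5.06 TPM in control and 34.2 to 40.0 TPM in shPBRM1 libraries. That sum was made up mostly of KRT8 and KRT18, while CDH1 went from 0.688 to 0.194 TPM and CLDN4 from 0.436 to 0.110 TPM, both under the filter. Of the mesenchymal markers, VIM (349 to 415 TPM) and CDH2 (36.7 to 50.6 TPM) were higher. FN1 (37.0 to 13.9 TPM) and ZEB1 (15.0 to 9.63 TPM) were lower. The 4 summed to 403 to 465 TPM in control and 461 to 515 TPM in shPBRM1 libraries. In the IRF1 experiment KRT18, the 1 epithelial marker tested, was lower (18.5% of all genes tested were lower). KRT18 averaged 1.83 TPM in control and 0.806 TPM in shIRF1 libraries, so it needed the control libraries to pass the filter. The 5 summed to 1.77 to 2.40 TPM in control and 0.852 to 1.08 TPM in shIRF1 libraries. The 4 mesenchymal markers summed there to 310 to 414 TPM in control and 224 to 272 TPM in shIRF1 libraries (1 lower). Their part in the changes of the listed genes was not tested, and in bulk RNA a change in the share of cells and a change per cell cannot be told apart.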

How the data were processed

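RNA-seq libraries (TruSeq Stranded mRNA, per the labels) of 2 TNBC cell lines formed 6 groups of 3. The authors aligned reads with STAR to GRCh38 and tested with DESeq2 (versions, annotation and the program behind TPM: not given in the sources used here). Deposited by the authors were 3 tables of TPM, 1 per experiment, and 3 tables of test results, of which only the mean normalized count (a signal column in units of counts divided by size factors, pooled over the 6 libraries) was used. The log2 folds and p-values in those tables are the study's findings and were not used. Since TPM holds no read depth, that of each library is unknown and no counting intervals are given. The mean normalized counts deposited by the authors sum to 27111321, 63114292 and 11858741 in the PBRM1, IRF1 and MUC1 experiments.

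Values were analysed as log2(TPM + 1) with limma 3.58.1 in R 4.3.3 (lmFit and eBayes, trend set to true, two-sided p-values adjusted by Benjamini-Hochberg over all genes tested), each table on its own and without a block. Genes needed at least 1 TPM in at least 3 of 6 libraries. The prior had 4.98 degrees of freedom in MDA-MB-436 and an infinite number in BT-549, where standard errors thus follow the expression level. Scripts were tested on simulated data. Ratios used an exact permutation test (scipy 1.17.1). Alternatives were no filter, a mean of at least 5 TPM, a pseudocount of 0.1, no trend, short noncoding RNAs removed and TPM rescaled, median-of-ratios scaling, a replicate block, and each library left out.

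The PBRM1 control columns match no single sample label, so they were assigned to their group and named a, b and c by column. After subtraction of group means, libraries with the same number correlated at 0.455, 0.309 and 0.290 in the PBRM1 experiment. In an alternative fit chosen after this was seen, the last numbers of its column names were taken to pair the libraries. What these numbers stand for is not stated, and such correlations do not establish a pairing. The correlations were -0.209, 0.085 and 0.228 in the IRF1 and 0.053, -0.036 and 0.006 in the MUC1 experiment, where the samples share only a number. Named pathway genes were the up to 6 of each list with the largest absolute fold among those that passed, plus any above 1. Not all were printed where a list held many, and 1 gene is not reported here. The listed genes and the pathway lists were chosen with earlier results of these data known. Gene positions come from GENCODE 29 and promoters from RefSeq.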

Additional observations from a re-analysis of the deposited data

How the results depend on the processing

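Over the alternatives, the folds of LGALS3, MUC1 and ST3GAL1 in the PBRM1 experiment, of C1GALT1 in the IRF1 experiment, and of MUC1, LGALS3, C1GALT1 and ST3GAL1 in MDA-MB-436 kept their direction and passed the test in each fit that tested them. The MUC1 fold of the IRF1 experiment became 0.021 with short noncoding RNAs removed, with or without the filter. The MUC16 fold in MDA-MB-436 ranged from -0.078 to 0.0088 with 1 library left out and became 0.0042 without DOX 3 and 0.0088 without vehicle 2. None of these passed. The log2 ratio of GCNT1 over ST3GAL1 in the PBRM1 experiment became -0.46 with a pseudocount of 0.1. The replicate block from the column names, chosen after seeing the data, brought 5 members past the test in the PBRM1 experiment (C1GALT1 and C1GALT1C1 added), as did removal of short noncoding RNAs (C1GALT1 and GCNT1 added). In the IRF1 experiment the replicate block left 1 member, since LGALS3 had an adjusted p of 0.14, and changed no member's result in MDA-MB-436. Without the filter the adjusted p of LGALS3 in the IRF1 experiment was 0.066, that of C1GALT1C1 in MDA-MB-436 0.080 and that of GCNT1 in MDA-MB-436 0.068. The same fits brought GCNT1 past the test in both BT-549 experiments and MUC20 in the IRF1 experiment, for 4, 3 and 4 members in the PBRM1, IRF1 and MUC1 experiments. Without the mean-variance trend C1GALT1C1 and GCNT1 in MDA-MB-436 had an adjusted p of 0.074 and 0.084, which left 4 members.

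Leaving out 1 library gave 3 to 4 members past the test in the PBRM1, 1 to 2 in the IRF1 and 4 to 6 in the MUC1 experiment. The numbers of all genes called moved from 519, 168 and 355 in the PBRM1, IRF1 and MUC1 experiments to 323, 97 and 211 when genes needed a mean TPM of 5, to 804, 350 and 622 with a pseudocount of 0.1, and to 1008 and 414 in BT-549 with short noncoding RNAs removed. Leaving out 1 library gave 375 to 519, 95 to 194 and 320 to 351, lowest in the IRF1 experiment without control 1. The causes were not tested. A mean normalized count of 36.5 limits MUC1 in MDA-MB-436, and MUC16 and MUC20 in BT-549 are below what the filter allows to be tested.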
